A study of Rattus norvegicus with 19 samples.

Results

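The circadian clock genes described here are 6 rows of a table of 30560 genes counted in the paraventricular nucleus (PVN) of the hypothalamus of rats. They were chosen by identifier, without a measured value: Bmal1 (ENSRNOG00000014448), Clock (ENSRNOG00000002175), Per1 (ENSRNOG00000007387), Per2 (ENSRNOG00000020254), Dbp (ENSRNOG00000021027) and Nr1d1 (ENSRNOG00000009329). Earlier results of these data were known when the members were chosen. All 6 rows were in the table, and all 6 passed the filter on low counts. The table gives identifiers only, and the symbols came with the list of members.

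The study compared the spontaneously hypertensive rat (SHR), an inbred strain with high blood pressure, with Wistar rats, a normotensive stock, in both sexes. There were 4 Wistar male, 5 SHR male, 5 Wistar female and 5 SHR female libraries of polyA RNA, each from the bilateral PVN punches of rats aged 14 weeks. No rat carried a transgene or received an experimental drug, but per the study's methods every rat had a telemetry probe implanted under ketamine and xylazine, with gentamicin and carprofen, and was killed at the end of a blood pressure recording made in a fixed clock hour of the morning, the same for all 4 groups. Females were recorded in dioestrus. The day and minute at which each rat was killed are not given in the sources used here. Clock transcripts change over the day, and a difference between groups in the time of collection around that hour cannot be told apart from a difference in strain or sex. The punches hold neurons, glia and vessel cells together, and fewer cells of a type and less RNA per cell cannot be told apart.

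The clock is a feedback loop of transcription. The proteins of Bmal1 and Clock form a pair that binds E-box sequences and switches on the Per and Cry genes, whose proteins return to the nucleus and silence the pair. A further loop runs through Nr1d1, which codes for the repressor REV-ERBα and acts on Bmal1 through ROR elements, and Dbp codes for an activator that binds D-boxes and drives rhythmic output genes. In rodents the master clock sits in the suprachiasmatic nucleus, a neighbour of the PVN, and PVN cells run the same loop; Per1 is also a known target of glucocorticoids and of the cyclic AMP pathway.

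The promoter windows of the members are shown because clock genes regulate each other through short sequences, which can lie in such windows or outside them. RefSeq windows of the rat build GRCr8, from 250 bases before to 50 after a start site, were found for all 6 members, with an alternative start for Clock and for Nr1d1. The coordinates are those of GRCr8, while the reads were mapped to another build, Rn7. Each window was searched on both strands for the E-box (CACGTG), the E-prime box (CACGTT), the D-box (TTATGTAA or TTACGTAA), the cyclic AMP response element (TGACGTCA) and the ROR element. Capitals mark the matches in the windows that hold one, and each is written 5′ to 3′ on the strand of its gene.
Bmal1, chr1:176766078-176766377, + strand, ROR element: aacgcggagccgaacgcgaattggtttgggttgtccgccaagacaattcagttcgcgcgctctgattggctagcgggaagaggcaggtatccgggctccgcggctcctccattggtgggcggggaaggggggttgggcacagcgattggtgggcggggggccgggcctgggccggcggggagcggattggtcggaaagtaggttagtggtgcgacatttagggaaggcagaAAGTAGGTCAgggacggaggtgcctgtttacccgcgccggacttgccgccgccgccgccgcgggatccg
Per2, chr9:99496944-99497243, − strand, D-box then E-prime box: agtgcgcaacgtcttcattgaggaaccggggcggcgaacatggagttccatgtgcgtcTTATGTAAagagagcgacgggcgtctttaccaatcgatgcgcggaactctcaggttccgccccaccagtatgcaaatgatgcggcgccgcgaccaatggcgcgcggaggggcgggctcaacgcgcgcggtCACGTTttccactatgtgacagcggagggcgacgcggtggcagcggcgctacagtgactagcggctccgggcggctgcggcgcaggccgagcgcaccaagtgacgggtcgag
Nr1d1, chr10:84231763-84232062, − strand, E-prime box on the opposite strand: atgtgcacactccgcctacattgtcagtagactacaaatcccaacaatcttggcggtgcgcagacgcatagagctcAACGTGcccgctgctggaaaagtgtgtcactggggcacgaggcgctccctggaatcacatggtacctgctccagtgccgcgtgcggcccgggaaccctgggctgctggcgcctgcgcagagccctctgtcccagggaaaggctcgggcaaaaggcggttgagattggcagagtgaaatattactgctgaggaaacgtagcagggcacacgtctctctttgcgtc
Nr1d1, alternative start, chr10:84229405-84229704, − strand, E-box: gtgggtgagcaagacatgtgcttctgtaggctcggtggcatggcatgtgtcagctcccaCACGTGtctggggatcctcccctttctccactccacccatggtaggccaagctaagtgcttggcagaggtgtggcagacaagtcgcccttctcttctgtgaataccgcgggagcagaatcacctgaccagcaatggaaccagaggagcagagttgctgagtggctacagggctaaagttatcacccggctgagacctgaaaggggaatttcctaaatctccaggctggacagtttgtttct
The Bmal1 match starts at base 232 of its window, counted from 1 at the 5′ end. In the Per2 window the D-box starts at base 59 and the E-prime box at base 189. The Nr1d1 matches start at base 77 and, in the second window, at base 60. None of these letters was in the windows of Per1, Dbp or Clock. Sequence outside the windows was not searched, so this does not show that these genes lack such elements. Among all 33469 RefSeq windows of this length, 6.42% held the E-box, 4.83% the E-prime box, 1.01% the D-box, 1.83% the cyclic AMP response element and 0.771% the ROR element. A match describes the letters and is not a measured binding site.

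Library totals ranged from 44943945 to 58793511 counts, and TMM factors, which correct for differences in composition between libraries, from 0.927 to 1.08. Member counts ranged from 893 for Per1 to 6128 for Dbp in single libraries, far above the 3 counts that a count of 0 allows. Levels are given as counts per 1000000 (CPM) scaled by these factors. Gene lengths were not used, so levels are compared between libraries and not between genes. The labelled tissue was not checked against PVN markers, and other clock genes such as the Cry genes were not analysed here, since the table's identifiers were not paired with their symbols.

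**Figure D1:**
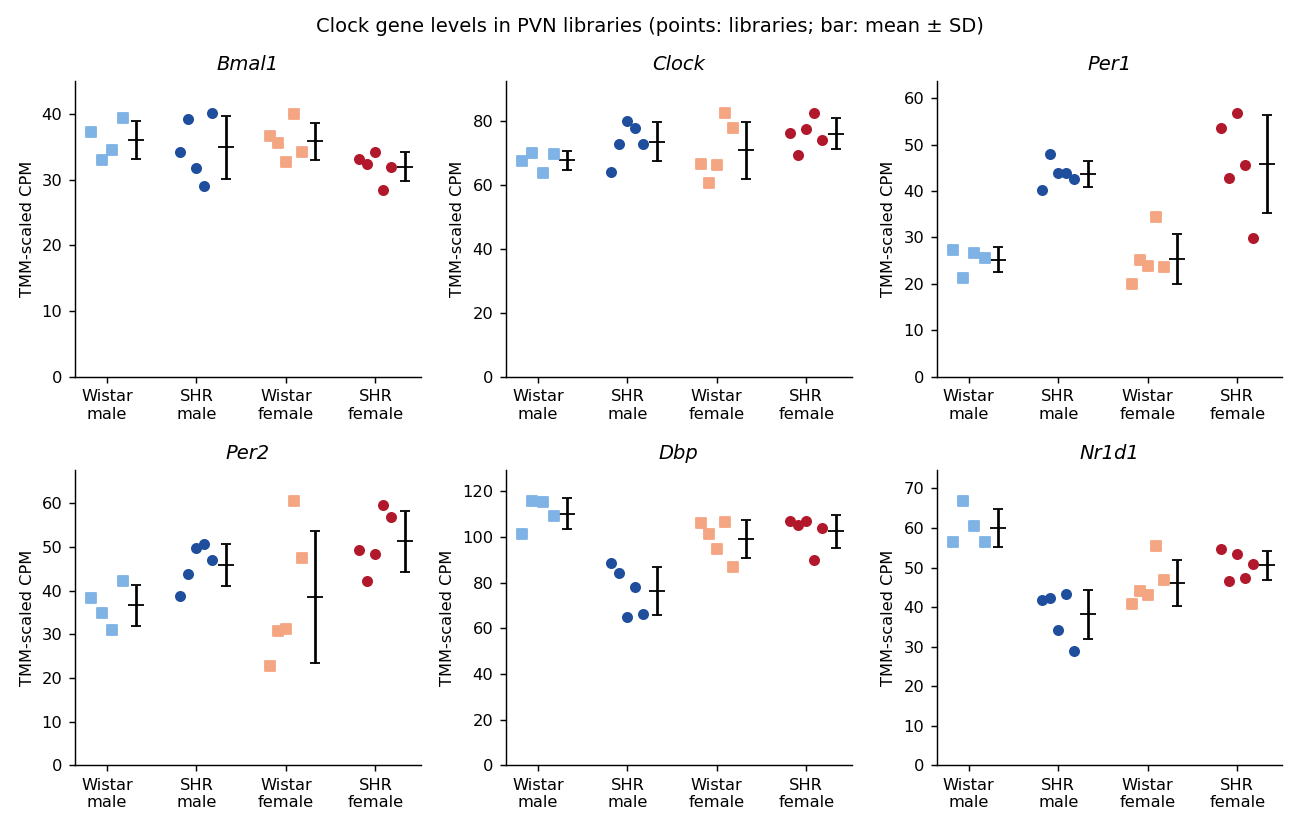
Levels of the 6 clock genes (vertical axes, TMM-scaled CPM, starting at 0) in the 4 groups. Each point is 1 library and each bar the mean ± SD; Per1 was higher and Dbp and Nr1d1 were lower in every SHR male library than in every Wistar male library.

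The first question was how hypertensive males differed from normotensive males. In SHR males Per1 and Per2 were higher and Dbp and Nr1d1 lower, while Bmal1 and Clock did not pass the test. Thus 4 of 6 clock genes were called at an adjusted p under 0.05 (edgeR quasi-likelihood test, Benjamini-Hochberg), against 12% of all genes tested, with 5.14% called higher and 6.9% called lower. The median size of the log2 change was 0.43 over the 6 members and 0.15 over all genes tested. Of the 2102 genes called, 898 were higher and 1204 lower in SHR, and with library totals in place of TMM the split was 520 against 1465, with the median of all genes at -0.06. Per1 higher and Dbp and Nr1d1 lower also passed on that scale.

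Per1, a period gene that acute inputs can induce, was at 27.3, 21.3, 26.7 and 25.5 CPM in the 4 Wistar males. In SHR males it was at 40.1, 48.0, 43.8, 43.8 and 42.7 CPM. The lowest SHR library lay above the highest Wistar library. The means were 25.2 ± 2.70 (SD, n = 4) and 43.7 ± 2.84 (SD, n = 5), a ratio of 1.73. The log2 change was 0.79 ± 0.08 (SE; edgeR adjusted p = 0.00012), rank 39 of 17461 genes by p. The call held without any 1 of the 9 libraries, with changes between 0.72 and 0.84.

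Per2, its paralog in the repressor arm, was at 38.3, 35.0, 31.1 and 42.1 CPM in Wistar males. Its levels in SHR males were 38.7, 43.9, 49.7, 50.6 and 46.9 CPM. The groups overlapped at 1 SHR library, replicate 1, which lay below the highest Wistar library, replicate 5. The log2 change was 0.33 ± 0.10 (SE; edgeR adjusted p = 0.0448). This call was fragile: it was lost without any 1 of SHR males 2, 3, 4 and 5 or of Wistar males 2, 3 and 4 (7 of 9 libraries, adjusted p between 0.0544 and 0.104), and with library totals (adjusted p = 0.137) or all 4 groups in 1 edgeR fit (adjusted p = 0.315).

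Dbp, the D-box activator, was lower in SHR males. Its Wistar levels were 101, 116, 115 and 109 CPM. Its SHR levels were 88.6, 84.3, 64.9, 78.4 and 66.4 CPM, each below the lowest Wistar male. The means were 110 ± 6.81 (SD, n = 4) and 76.5 ± 10.6 (SD, n = 5), a ratio of 0.694. On the log2 scale Dbp fell by 0.53 ± 0.09 (SE; edgeR adjusted p = 0.00385), and the call held without any 1 of the 9 libraries.

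Nr1d1, the gene of REV-ERBα, was lower by a similar margin. Wistar males were at 56.6, 66.7, 60.5 and 56.6 CPM. SHR males were at 41.8, 42.4, 34.1, 43.4 and 29.0 CPM. Again no SHR male reached the lowest Wistar male. The means were 60.1 ± 4.79 (SD, n = 4) and 38.1 ± 6.30 (SD, n = 5), a ratio of 0.635, and Nr1d1 fell by 0.66 ± 0.11 on the log2 scale (SE; edgeR adjusted p = 0.00326). This call too held without any 1 of the 9 libraries. Groups that do not overlap were thus seen for 3 of 6 clock genes in males, against 14.5% of genes.

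The activator pair moved least. Bmal1 was at 37.3, 32.98, 34.5 and 39.5 CPM in Wistar males and at 34.3, 39.2, 31.8, 29.1 and 40.2 CPM in SHR males. The SHR libraries lay on both sides of the Wistar range. Its log2 change was -0.05 ± 0.10 (SE; edgeR adjusted p = 0.787). Clock was at 67.4, 70.0, 63.6 and 69.4 CPM in Wistar males and at 63.9, 72.7, 79.8, 77.6 and 72.7 CPM in SHR males. All SHR males but replicate 1 lay above the Wistar range, and the log2 change was 0.12 ± 0.07 (SE; edgeR adjusted p = 0.254).

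**Figure D2:**
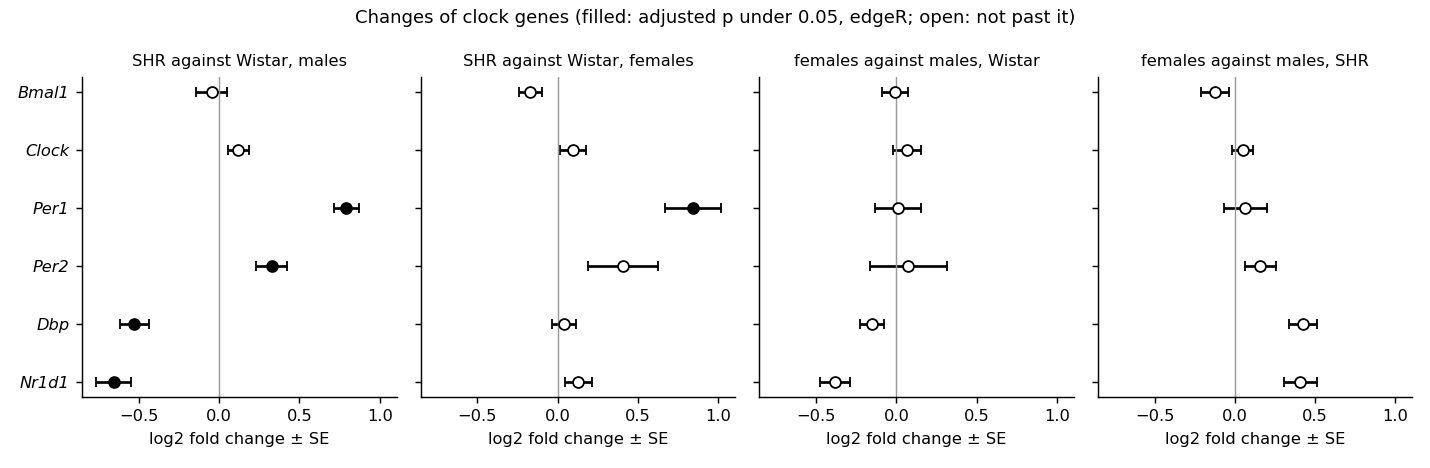
Log2 fold changes ± SE of the 6 clock genes (horizontal axis) in the 4 comparisons between groups, from edgeR. Filled points passed an adjusted p of 0.05: 4 genes in males, Per1 in females, and no gene in the comparisons of females with males.

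In females the strain comparison turned on Per1 alone. Per1 was 1 of 6 clock genes called, against 2.32% of all genes tested. Wistar females were at 20.03, 25.0, 23.8, 34.3 and 23.7 CPM. SHR females were at 53.6, 42.7, 56.9, 45.5 and 29.97 CPM. The groups overlapped only because SHR female 5 lay below Wistar female 4: in 24 of 25 pairs of libraries the SHR female was higher. The means were 25.4 ± 5.34 (SD, n = 5) and 45.7 ± 10.5 (SD, n = 5), a ratio of 1.80. The log2 change was 0.84 ± 0.17 (SE; edgeR adjusted p = 0.0274). Leaving out any 1 of SHR females 1 to 4 or of Wistar females 2 and 3 moved the adjusted p past 0.05, to 0.0571 at the lowest and 0.0799 at the highest, with changes between 0.76 and 0.98 over all 10 such fits. Under DESeq2 the adjusted p was 0.000165, and over 11 alternative fits with all libraries and Benjamini-Hochberg adjustment it ran from 1.25e-06 to 0.0438. The lowest came from DESeq2 with all 4 groups in 1 fit, a fit added after the data were seen.

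The other repressor gene, Per2, varied most among Wistar females. They were at 22.8, 30.8, 31.2, 60.4 and 47.4 CPM, a 2.65-fold range. SHR females were at 49.4, 42.3, 48.3, 59.5 and 56.9 CPM. Wistar female 4 lay above the SHR range, Wistar female 5 within it and the other three below it. The log2 change was 0.41 ± 0.22 (SE; edgeR adjusted p = 0.368), larger than in males but with an error that was also larger. The SD of log2 CPM in Wistar females was 0.56, larger than that of 84.7% of 17432 genes, whose median there was 0.20. Of the other groups' Per2 SDs the highest was 0.20, in SHR females. For Per1 the widest group was SHR female, with an SD of 0.36, larger than that of 80.1% of genes.

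Dbp and Nr1d1, which fell in SHR males, did not pass the test in females. Dbp was at 106, 102, 94.8, 106 and 87.1 CPM in Wistar females and at 107, 105, 107, 89.8 and 104 CPM in SHR females. The ranges nearly coincided, and the log2 change was 0.04 ± 0.07 (SE; edgeR adjusted p = 0.818). Nr1d1 was at 40.9, 44.0, 43.1, 55.6 and 46.9 CPM in Wistar females and at 54.8, 46.5, 53.5, 47.4 and 51.0 CPM in SHR females. Its highest library was Wistar female 4, and its log2 change was 0.13 ± 0.08 (SE; edgeR adjusted p = 0.467).

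Neither activator passed the test in females. Bmal1 was at 36.6, 35.5, 32.7, 40.04 and 34.3 CPM in Wistar females and at 33.2, 32.4, 34.2, 28.5 and 31.9 CPM in SHR females. Most SHR females lay below most Wistar females, in 23 of 25 pairs, but the log2 change of -0.17 ± 0.07 (SE) had an edgeR adjusted p of 0.252. Clock was at 66.5, 60.6, 66.2, 82.2 and 77.6 CPM in Wistar females and at 76.1, 69.2, 77.4, 82.4 and 74.0 CPM in SHR females. These overlapped over most of their range, with a log2 change of 0.10 ± 0.08 (SE; edgeR adjusted p = 0.585). In females 0 of 6 clock genes had groups that do not overlap, against 5.24% of genes.

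The next question was how the sexes differed within each strain. In edgeR 0 of 6 clock genes were called between Wistar females and males, against 0.0629% of genes, and 0 of 6 between SHR females and males, against 0.0694%. At an unadjusted p under 0.05 the clock genes counted were 1 of 6 in Wistar (Nr1d1), against 4.09% of genes, and 2 of 6 in SHR (Dbp and Nr1d1), against 14.9% of genes. DESeq2 called 0 of 6 in Wistar, against 20 of 17490 genes, and 2 of 6 in SHR, against 1.75% of genes.

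The order of the sexes in Nr1d1 was opposite in the 2 strains, with no overlap in either. In Wistar rats every female library, at 55.6 CPM or below, lay under every male library, at 56.6 CPM or above, a narrow gap. Nr1d1 was 1 of 6 clock genes with no overlap there, against 1.49% of genes. The female mean was 46.1 ± 5.72 CPM (SD, n = 5), and the log2 difference, females minus males, was -0.38 ± 0.09 (SE; edgeR adjusted p = 0.909, DESeq2 adjusted p = 0.182). In SHR every female, at 46.5 CPM or above, lay over every male, at 43.4 CPM or below. There the female mean was 50.6 ± 3.65 CPM (SD, n = 5), and the log2 difference was 0.41 ± 0.10 (SE; edgeR adjusted p = 0.174, DESeq2 adjusted p = 0.0241).

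Dbp showed the same order within SHR. Every SHR female, at 89.8 CPM or above, lay over every SHR male, at 88.6 CPM or below. The female mean was 103 ± 7.29 CPM (SD, n = 5), and the log2 difference was 0.42 ± 0.09 (SE; edgeR adjusted p = 0.152, DESeq2 adjusted p = 0.00411). Dbp and Nr1d1 were 2 of 6 clock genes with no overlap between the sexes in SHR, against 3.11% of genes. Over 11 alternative fits of the sexes in SHR the adjusted p ran from 0.000106 to 0.209 for Dbp and from 0.0052 to 0.386 for Nr1d1. The lowest value for each came from DESeq2 with the replicate number as a linear covariate, a fit added after the data were seen. In Wistar rats the order of the Dbp means was opposite, but the sexes overlapped, with a log2 difference of -0.15 ± 0.07 (SE; edgeR adjusted p = 0.909). SHR males thus had the lowest mean of the 4 groups for both genes, and Wistar males the highest.

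Whether the strain difference depended on sex was tested as an interaction across all 4 groups, females minus males. For Nr1d1 it was 0.79 ± 0.15 on the log2 scale (SE; edgeR adjusted p = 0.144), rank 2 of 17432 genes by p. For Dbp it was 0.58 ± 0.12 (SE; edgeR adjusted p = 0.220), rank 10 by p. After adjustment edgeR called 0 of 6 clock genes and 0% of all genes, although 2332 genes had an unadjusted p under 0.05. DESeq2 called Nr1d1 (adjusted p = 0.0017) and Dbp (adjusted p = 0.013), 2 of 6 members against 0.275% of genes. Over 9 alternative fits, other than Bonferroni adjustment and leaving out libraries, the adjusted p ran from 0.000895 to 0.223 for Nr1d1 and from 0.000693 to 0.293 for Dbp, with 3 of 9 past the threshold for each. For each gene the lowest value and 1 of these calls came from DESeq2 with the replicate number as a linear covariate, a fit added after the data were seen. The call on these genes therefore depended on the tool and on the model fitted, since edgeR with the replicate number as a block also called both, and the loss of 1 library, Wistar female 4, brought Nr1d1 past the threshold in edgeR (adjusted p = 0.039). For the period genes and activators the interactions were small against their errors: 0.06 ± 0.21 for Per1, 0.08 ± 0.27 for Per2, -0.12 ± 0.12 for Bmal1 and -0.02 ± 0.11 for Clock (SE; edgeR adjusted p between 0.671 and 0.958).

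Ratios of counts within a library need no scaling between libraries. They are built from the same counts as the levels above, so they describe the same contrasts and are no further test. In males the separate ranges of Per1 over Nr1d1 and over Dbp follow from levels that did not overlap. Per1 over Nr1d1 was 0.320 to 0.483 in Wistar males and 0.959 to 1.47 in SHR males. In females it was 0.490 to 0.618 in Wistar rats and 0.588 to 1.06 in SHR. The male ranges were far apart, while the female ranges met at SHR female 5, the library with the lowest Per1 of its group. Per1 over Dbp was 0.453 to 0.675 in SHR males against 0.184 to 0.270 in Wistar males, and 0.289 to 0.531 in SHR females against 0.189 to 0.323 in Wistar females. Between groups Dbp over Nr1d1 was the steadiest of these, with group means between 1.84 and 2.18. Within Wistar females its SD was 13.9% of its mean, against 9.36% for Per1 over Nr1d1. There it fell from 2.60 in replicate 1 to 1.86 in replicate 5.

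The labels number the libraries of each group, from 1 to 5 (2 to 5 for Wistar males), and the sources used here do not say what the number stands for. The clock genes were set against it because it could follow the order of collection. Of the 6 members, 1 was called in edgeR with the number as a linear term beside the group, against 15.3% of all genes tested, a share near that of the members. That gene was Per2, with a log2 slope of 0.14 ± 0.04 per number (SE; edgeR adjusted p = 0.0248). The slopes were 0.04 ± 0.02 for Clock (adjusted p = 0.112) and -0.05 ± 0.02 for Dbp (adjusted p = 0.128), and those of Per1, Nr1d1 and Bmal1 lay within their SEs of 0.

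**Figure D3:**
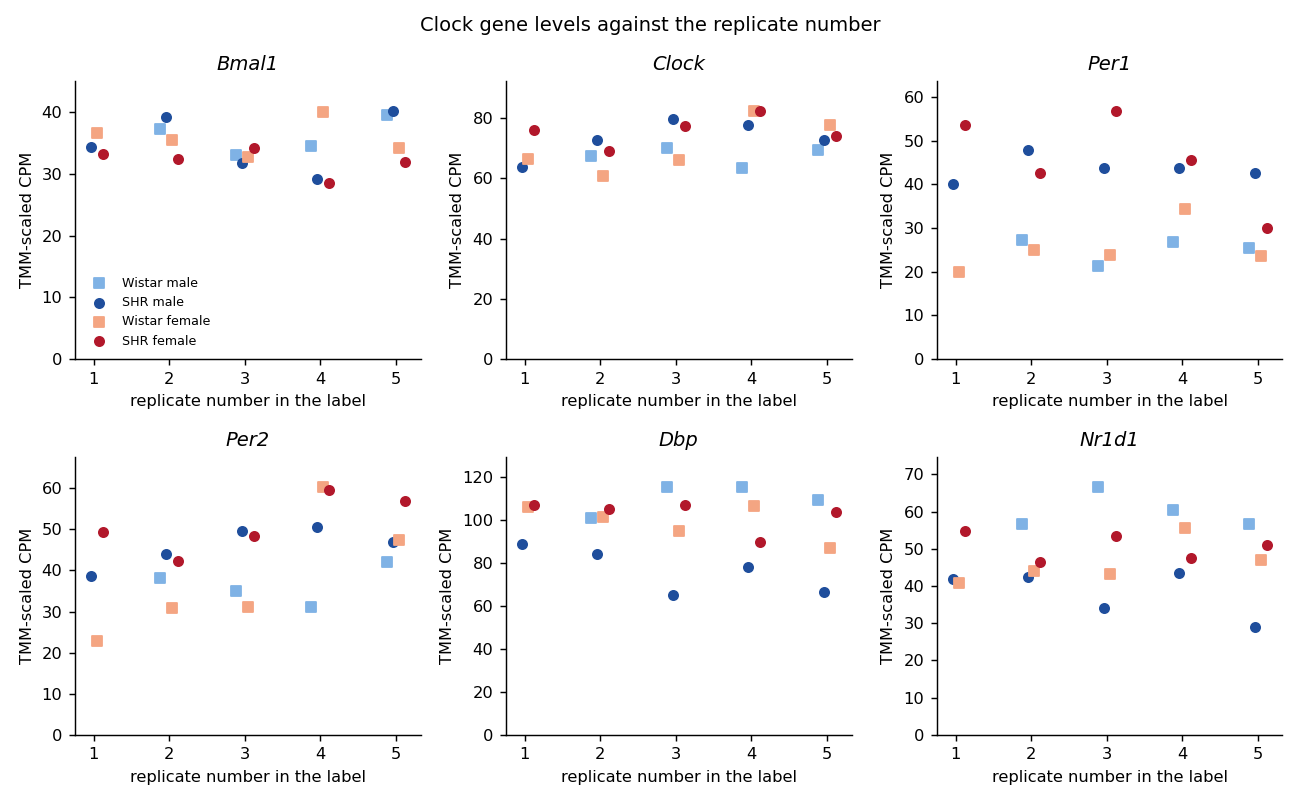
Levels of the clock genes (vertical axes, TMM-scaled CPM, starting at 0) against the replicate number in the label (horizontal axes), 1 point a library, in 4 groups. Per2 in Wistar females runs from 22.8 CPM at number 1 to 60.4 CPM at number 4; points are shifted slightly sideways so that groups can be told apart.

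With group means removed, Pearson's r of log2 CPM with the number over 19 libraries was 0.650 for Per2 (permutation p = 0.0036, adjusted over 6 members 0.0216; Spearman's rho = 0.708, permutation p = 0.00319). Without 2 libraries at the ends of the numbering it ranged from 0.527 to 0.739 over 21 choices. Within groups the Per2 slope was 0.32 in Wistar females, 0.09 in SHR females, 0.08 in SHR males and 0.03 in Wistar males. Wistar females thus had the steepest, and were the only group in which edgeR called Per2 when fitted alone. The call in edgeR was lost without Wistar female 1 (adjusted p = 0.0732) and without Wistar female 5 (adjusted p = 0.0862). The TMM factors of Wistar females 1 to 5 were 0.927, 0.990, 0.969, 1.02 and 1.06, higher at the later numbers. With library totals in place of TMM, r of Per2 with the number was 0.689 (adjusted permutation p = 0.00864), and edgeR also called Per2. The part of the TMM factors in the Per2 result was not tested in any other way. For Clock r was 0.525 (permutation p = 0.0429, adjusted 0.111; rho = 0.457, permutation p = 0.0848), and for Dbp it was -0.498 (permutation p = 0.0557, adjusted 0.111; rho = -0.506, permutation p = 0.0502). The other three lay between -0.136 and -0.0431, with adjusted permutation p of 0.861 or above.

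The strain contrasts were read within numbers as well. The male groups did not overlap for Per1, Dbp and Nr1d1, so their direction at every shared number was fixed in advance. For these genes in males the ratios describe the size only. In males Per1 was higher in SHR at 4 of 4 shared numbers, by 1.64 to 2.05 times, and in females at 5 of 5, by 1.26 to 2.68 times. Dbp in SHR males was 0.561 to 0.833 of the Wistar male of the same number, and Nr1d1 was 0.512 to 0.749 of it, lower at 4 of 4 numbers. Per2 was higher at 4 of 4 numbers in males and at 4 of 5 in females. With the number as a linear covariate, DESeq2 also called Per2 in females (adjusted p = 0.0345), an alternative added after the data were seen and the only 1 of 11 that called it there.

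The last question was whether clock genes varied together from library to library. Over the 15 pairs, with group means removed, 1 passed: Clock with Per2, at r = 0.807 over 19 libraries (permutation p = 0.00103, adjusted over 15 pairs 0.0154; rho = 0.830, permutation p = 0.00045). Without the 2 libraries whose Clock level, before group means were removed, lay farthest from the median, r was 0.816. Over all 19 libraries, with the number removed as well as group means, it was 0.720 (adjusted permutation p = 0.0408). It was positive in each group, at 0.959 for SHR males and 0.708 for Wistar males, and at 0.747 for SHR females and 0.854 for Wistar females. Leaving out 1 library gave 0.721 to 0.884, with the adjusted p past 0.05 in 5 of 19 cases, without SHR female 2, SHR male 1 or Wistar female 3, 4 or 5 (adjusted permutation p of 0.0811 at the highest). Wistar female 4 was the highest library of its group for every member, for Dbp only narrowly. Clock and Per2 share each library's depth and composition, and 69 genes stood closer to Clock than Per2 did. Seen from Per2, Clock ranked 223 among the closest genes.

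**Figure D4:**
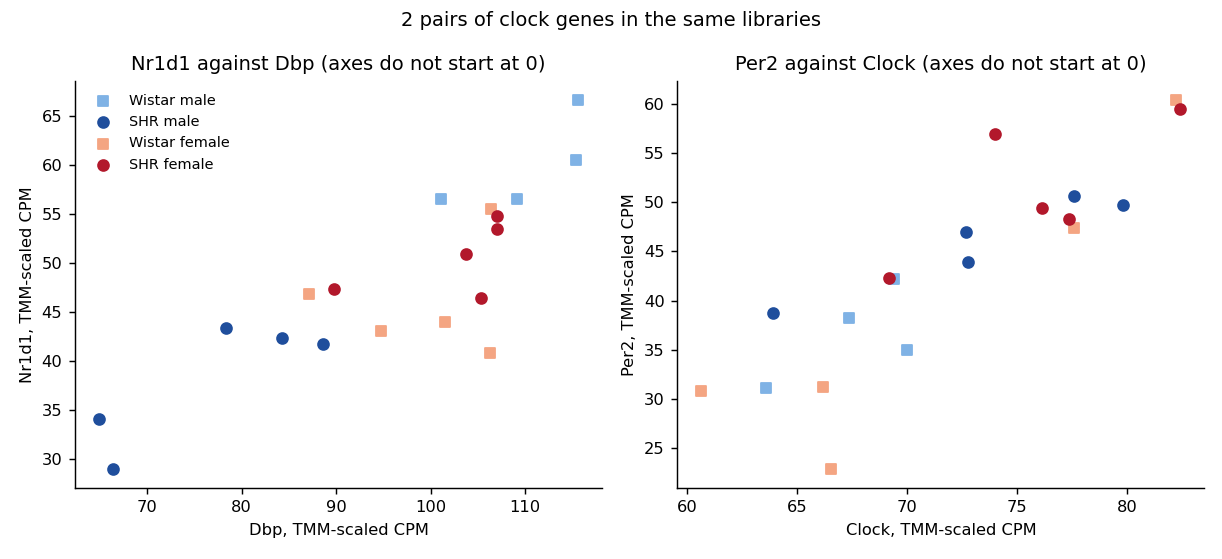
Levels of Nr1d1 against Dbp (left) and of Per2 against Clock (right), in TMM-scaled CPM, 1 point a library in 4 groups, with axes that do not start at 0. SHR males lie at the lower left for Dbp and Nr1d1, and the right panel shows the pair with r = 0.807 once group means were removed.

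Dbp and Nr1d1 followed at r = 0.633 (permutation p = 0.0313, adjusted 0.234; rho = 0.649, permutation p = 0.0206), which did not pass. Without the 2 libraries whose Dbp level, before group means were removed, lay farthest from the median, r was 0.310. Its size thus rests in part on those libraries, while leaving out any 1 library gave 0.537 to 0.735. Taken singly, SHR males had 0.849, Wistar males 0.754, SHR females 0.572 and Wistar females 0.111. Per2 with Dbp was -0.344 (permutation p = 0.147, adjusted 0.358; rho = -0.430, permutation p = 0.0779). Without Wistar female 4 it was -0.655 (adjusted permutation p = 0.0241), the only 1 of 19 such cases that passed. Over all 19 libraries it was -0.0304 with the number removed as well (adjusted permutation p = 0.964). With library totals in place of TMM it was -0.0646 (adjusted permutation p = 0.839). The paralogs Per1 and Per2 were at 0.369 (permutation p = 0.215, adjusted 0.358; rho = 0.265, permutation p = 0.346), and the partners Bmal1 and Clock at -0.0551 (permutation p = 0.839, adjusted 0.839; rho = -0.0912, permutation p = 0.735). The genes most like each member over the 19 libraries were not clock genes of this list: the closest to Per2 was ENSRNOG00000023548 (r = 0.956) and the closest to Clock was ENSRNOG00000024503 (r = 0.921).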

How the data were processed

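PVN punches from 19 rats were sequenced as polyA libraries (TruSeq Stranded mRNA, paired-end). Per the study's methods and labels, the authors trimmed reads with Trimmomatic (Phred 30), mapped them to Rn7 with STAR and counted them with featureCounts; versions, settings and annotation are not given in the sources used here. The deposited values are raw counts per gene, and 73.9% of values from 1 to 100 were even, as when both reads of a pair are counted. Library totals were 44943945 to 58793511. Chi-square per degree of freedom between libraries of 1 group was 5.91 to 160, so no library was counted as a duplicate.

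Genes with a mean above 5 median-of-ratios normalized counts in the fitted libraries were tested with edgeR 4.0.16 (R 4.3.3; TMM, quasi-likelihood F-test, Benjamini-Hochberg over all genes tested, threshold 0.05), and with DESeq2 1.42.0 as an alternative. Only the groups compared entered a fit, except for the interaction and the replicate number, which used all 4. The SE of an edgeR log2 change was derived from the test, as the size of the change over the square root of its F statistic. Relations used log2 CPM with a prior count of 2, group means removed, and two-sided permutation tests with 100000 shuffles within groups (Python 3.11.15, numpy 2.4.6). Libraries are separate rats per the study's methods. Steps were tested on simulated counts. Groups came from the labels. The 6 members and all lists and tests were chosen with earlier results of these data known; every member was named. A wider clock list and cell type markers, given by symbol, were not analysed here, because 0 of the table's identifiers matched the reference tables. Alternatives were another tool, Bonferroni adjustment, other factors and filters, halved counts, all groups in 1 fit, the number as a block or covariate, and leaving out each library. Fits with library totals in place of TMM, and DESeq2 with all groups in 1 fit or with the number as a covariate, were added after the data were seen.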

Additional observations from a re-analysis of the deposited data

Results flagged for a closer look

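Dbp in SHR female replicate 4 was at 89.8 CPM, set apart from the other SHR females at 104 to 107 CPM. Its gap to the nearest was 0.811 of the group's range, above the critical value for 5 libraries. It was the only such value among 24 sets of a clock gene in a group, of which chance marks about 1 in 20.

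The sex difference of Nr1d1 ran in opposite directions in the 2 strains, with every Wistar female below every Wistar male and every SHR female above every SHR male. The interaction was 0.79 on the log2 scale and did not pass in edgeR (adjusted p = 0.144).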

How the results depend on the processing

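Of 690 log2 changes of members under the alternatives, 633 kept their direction and side of the threshold, 20 lost a call, 13 gained one and 24 changed sign; of 126 relations with the number, 112 kept both, and of 315 pair correlations 298. The cause of each change was not tested, except that fewer libraries or a stricter adjustment lowers counts by construction. Per1, Dbp and Nr1d1 in males passed under every alternative but Bonferroni adjustment, which kept Per1 alone, 1 of 6 members among 87 genes. It left 0 members and 40 genes in females, and 0 members and 48 genes for the number.

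In females the genes called were 1095 with DESeq2, 1104 with all 4 groups in 1 edgeR fit and 835 with the number as a linear covariate. DESeq2 called 1580 over all 4 groups, and 1808 of 17404 genes and 2 of 6 members with the covariate. Between the sexes in Wistar rats DESeq2 called 20 genes, and 31 over all 4 groups and 31 with the covariate. In SHR the covariate gave 24 genes. There DESeq2 called 302 of 17285 genes and 2 members, and 22 of 17432 genes and 1 member (Dbp) over all 4 groups. With the covariate it called 693 of 17285 genes and 2 members. For the interaction DESeq2 called 48 of 17432 genes and 2 members, and 265 of 17432 genes and 2 members with the covariate.

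Same-numbered libraries deviated together for number 5 (correlations from 0.0832 to 0.386 in 6 of 6 pairs of groups) but not for every number (-0.205 at the lowest), so the numbers were not taken to pair the rats. A library was closest to its own number in 23 of 54 cases of a library and another group, with 4 or 5 libraries to choose from in each. The count that unrelated numbers would give was not computed, so whether the rats were paired by number is not settled here. The replicate block changed no call of a member except in the interaction. There edgeR called 32 of 17432 genes and 2 members, Dbp and Nr1d1 (adjusted p = 0.0492 for both).

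Within single groups, 1022 of 17385 genes followed the number in Wistar females, with 1 of 6 members called, Per2. There the slopes of Per1 and Nr1d1 turned to 0.10 and 0.076. In SHR females 0 genes and 0 members were called in edgeR, in SHR males 0 and 0, and in Wistar males 0 and 0. The slopes turned to 0.0058 for Bmal1 and 0.0023 for Per1 in SHR males, and to 0.031 for Bmal1, -0.0012 for Clock and 0.032 for Dbp in Wistar males. Library totals in place of TMM called 2 members with the number, Clock and Per2, against 17.8% of genes, and turned the slopes of Bmal1, Per1 and Nr1d1 to 0.024, 0.011 and 0.012. They also turned Per1 between the sexes in Wistar to -0.026 and the Clock interaction to 0.057. On that scale r with the number was 0.227 for Bmal1, 0.685 for Clock (adjusted permutation p = 0.0106), 0.0533 for Per1 and 0.0843 for Nr1d1, and r was 0.188 for Bmal1 with Clock and 0.0165 for Bmal1 with Nr1d1. Per1 with the number was 0.0054 in the weakest choice without 2 end libraries, and Per1 with Dbp was -0.000599 with the number removed.

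Leaving out 1 library at a time gave 1203 to 1883 genes in males, 174 to 811 in females with 0 to 1 members, 0 to 3 for the interaction with 0 to 1 members, and 1169 to 3027 for the number with 0 to 1 members. Log2 changes that met 0 ranged from -0.10 to 0.013 for Bmal1 in males, -0.052 to 0.040 for Bmal1, -0.12 to 0.085 for Per1 and -0.15 to 0.21 for Per2 between the sexes in Wistar, and -0.0071 to 0.080 for Clock and -0.025 to 0.18 for Per1 in SHR. For the interaction they were -0.066 to 0.045 for Clock, -0.034 to 0.19 for Per1 and -0.067 to 0.31 for Per2, and for the number -0.021 to 0.0063 for Bmal1, -0.045 to 0.026 for Per1 and -0.032 to 0.014 for Nr1d1. With the number r ranged from -0.257 to 0.0678 for Bmal1, -0.269 to 0.141 for Nr1d1, -0.276 to 0.210 for Per1 and 0.572 to 0.708 for Per2. Between members it ranged from -0.293 to 0.0573 for Bmal1 with Clock, -0.342 to 0.221 for Bmal1 with Nr1d1, -0.204 to 0.172 for Bmal1 with Per2, 0.721 to 0.884 for Clock with Per2, -0.0762 to 0.139 for Per1 with Dbp and -0.655 to -0.247 for Per2 with Dbp.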

Other observations

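Further count ratios within libraries described the period genes against the activators. Per2 over Bmal1 averaged 1.34 ± 0.289 (SD, n = 5) in SHR males against 1.01 ± 0.0770 (SD, n = 4) in Wistar males, and 1.62 ± 0.319 (SD, n = 5) in SHR females against 1.07 ± 0.369 (SD, n = 5) in Wistar females. Clock over Bmal1 averaged 2.14, 1.88, 2.38 and 1.97 in the same order of groups. Per1 over Per2 averaged 0.957, 0.697, 0.913 and 0.704, with its widest range in SHR females, from 0.527 in replicate 5 to 1.18. These ratios were not tested.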
